A study of Sus scrofa with 12 samples.

Results

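The complement genes named CFP, CFB, CFD, CFI, C3, C1QA, C1QB, C1QC and C1S were examined in RNA-seq libraries of the piglet jejunum. Of these 9 names, 5 (C1QA, C1QC, CFD, CFP and CFI) are carried by rows of the deposited table, which holds 17049 gene names in all, and each of the 5 has 1 row. No row carries the names CFB, C3, C1QB or C1S, and these genes were not analysed here under their names. The names were chosen from results of these same libraries, in which weaned and sucking control piglets had been compared, so the values in those libraries are given as a description. The study compared the jejunum of piglets before and after weaning.

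Pigs (Sus scrofa) in 4 groups gave 3 libraries each. Sucking control piglets were 21 days old and taken on the day of weaning, and weaned control piglets were 28 days old, 7 days after weaning. Their sows received a corn and soybean meal diet without resveratrol. Sucking and weaned resveratrol piglets had the same ages, and their sows received that diet with 300 mg/kg of resveratrol, a plant polyphenol, from 20 days after breeding until the end of lactation. The sample records describe Landrace semen, cross-fostering within each diet, and piglets that stayed in their pens after weaning, whereas the study's methods describe male Yorkshire × Duroc piglets that were transferred after weaning, and only control libraries. Age and weaning change together in every comparison of weaned with sucking piglets and cannot be told apart.

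Complement is a set of proteins that mark microbes and dying cells and then help to clear them. The classical pathway begins when C1q, built of 3 kinds of chain encoded by C1QA, C1QB and C1QC, binds antibody or a cell surface; tissue macrophages and dendritic cells are a main source of C1q. The alternative pathway depends on factor D (CFD), a protease that cuts factor B, and on properdin (CFP), which stabilises the enzyme that cleaves C3. Factor I (CFI) is a protease that inactivates the cleavage products of C3 and C4 and so restrains the cascade. The liver makes most plasma complement, and intestinal epithelium and immune cells also transcribe parts of it.

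All values are FPKM, fragments per kilobase of transcript scaled to the mapped fragments of each library. They are corrected for gene length, so that levels of different genes can be compared. The table gives no read count behind a value. Read totals, which the study gives for the control libraries, were not used here. Summed FPKM ranged from 313171 to 334469 over the 12 libraries. Correlations of log2(FPKM + 1) between replicates, taken across genes, which are not independent replicates, were 0.921 to 0.954 in sucking control and 0.881 to 0.911 in sucking resveratrol piglets. The tissue label was checked against markers. FABP6, a bile acid binding protein of the distal small intestine, had 8055, 1231 and 9.10 FPKM in sucking control piglets, 9621, 8791 and 6518 FPKM in weaned control piglets, 128, 12.2 and 6146 FPKM in sucking resveratrol piglets, and 24110, 1.70 and 4.81 FPKM in weaned resveratrol piglets. The libraries thus differ in a marker of position along the intestine within as well as between groups. The study reports FABP6 as raised by weaning in the control libraries, so it does not mark position alone. Replicate 2 of the sucking resveratrol piglets stood apart, with a summed 2330 FPKM for 4 smooth muscle markers, against 87.7 to 1163 FPKM in the other libraries. In bulk tissue, fewer cells of a type and less RNA per cell cannot be told apart.

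C1QC was the most abundant of the 5 genes, with a mean of 231.7 FPKM over the 12 libraries, which ranks 196 of the 17049 gene names. C1QA (168.9 FPKM, rank 278), CFD (161.8 FPKM, rank 288) and CFI (135.8 FPKM, rank 344) followed. CFP was far lower, at a mean of 9.98 FPKM and rank 3933.

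**Figure D1:**
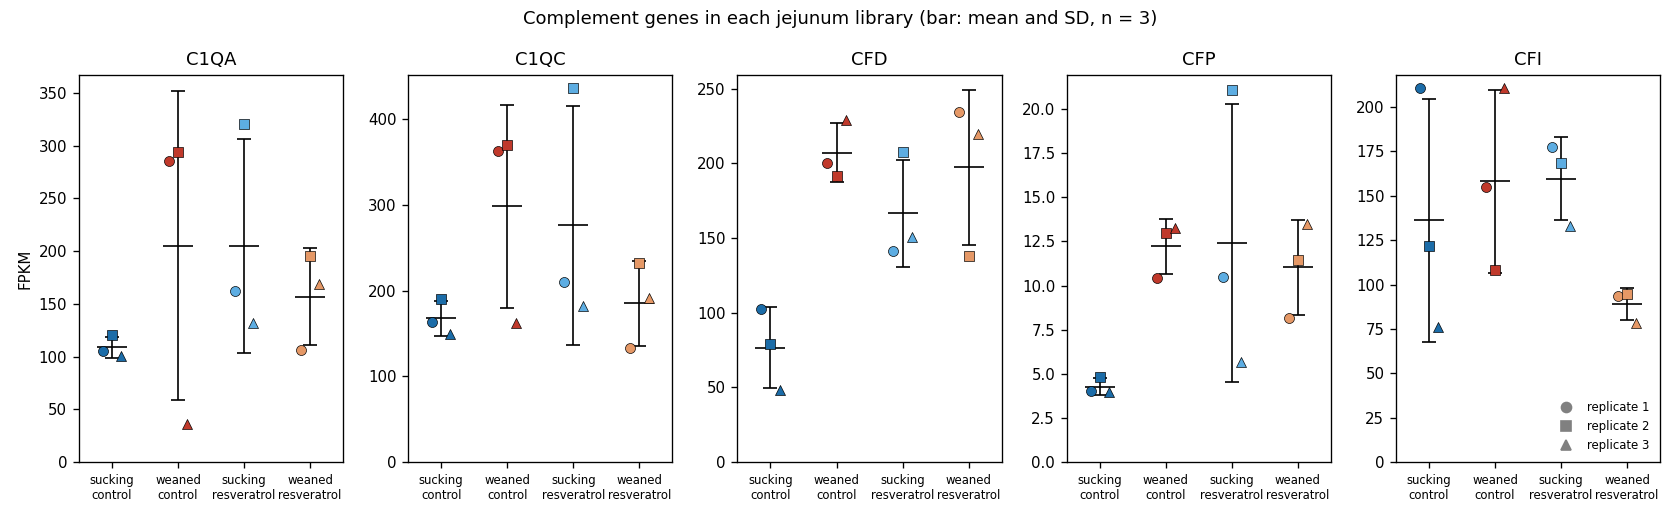
FPKM of C1QA, C1QC, CFD, CFP and CFI in each of the 12 jejunum libraries (points, shape by replicate) of the 4 groups on the horizontal axis, with the mean and SD of 3 libraries (bars). CFD and CFP are lowest in the 3 sucking control libraries, CFI is lowest as a group in weaned resveratrol piglets, and C1QA drops to 36.3 FPKM in 1 weaned control library.

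The C1q chains had even levels and their lowest group means in sucking control piglets. In weaned control and sucking resveratrol piglets single libraries set the spread. C1QA had 105, 120 and 101 FPKM in sucking control piglets, 285, 294 and 36.3 FPKM in weaned control piglets, 162, 320 and 132 FPKM in sucking resveratrol piglets, and 106, 196 and 169 FPKM in weaned resveratrol piglets. Replicate 3 of the weaned control piglets therefore lay below every sucking control library, while the other 2 lay far above them. The log2 fold change of weaned against sucking control piglets was 0.42 (SE 0.75) for C1QA with all 6 libraries and 1.41 without that library, and it was -0.063 without replicate 1 and -0.084 without replicate 2 of the weaned control piglets. C1QC had 164, 190 and 150 FPKM in sucking control piglets and 363, 370 and 162 FPKM in weaned control piglets. The same library was again the low one, within the range of the sucking controls, and the log2 fold change was 0.74 (SE 0.33). In sucking resveratrol piglets C1QC had 210, 436 and 182 FPKM, and in weaned resveratrol piglets 133, 232 and 191 FPKM, so these groups overlapped. The high value in each chain belonged to the sucking resveratrol library with the most smooth muscle transcript. The part of that library's tissue content in the C1q values was not tested.

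The ratio of C1QA to C1QC was described and not tested, and no share over other pairs of genes stands beside it. C1QA was 0.634 to 0.674 times C1QC in sucking control, 0.727 to 0.774 times in sucking resveratrol and 0.799 to 0.884 times in weaned resveratrol piglets, and these ranges did not overlap. In weaned control piglets it was 0.786 and 0.794 times C1QC in replicates 1 and 2 and 0.224 times in replicate 3. This group's range thus took in those of the sucking groups. A row without a gene symbol, ENSSSCG00000003528, which the table annotates with the collagen trimer and complement cascade terms, was 0.413 to 0.777 times C1QC in all 12 libraries and 0.660 times C1QC in that library. This row was picked after its values were seen. The low ratio there was thus one of C1QA and not of that row. In RefSeq's annotation of the Sscrofa11.1 assembly, C1QC lies between C1QA and C1QB on 1 chromosome.

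**Figure D2:**
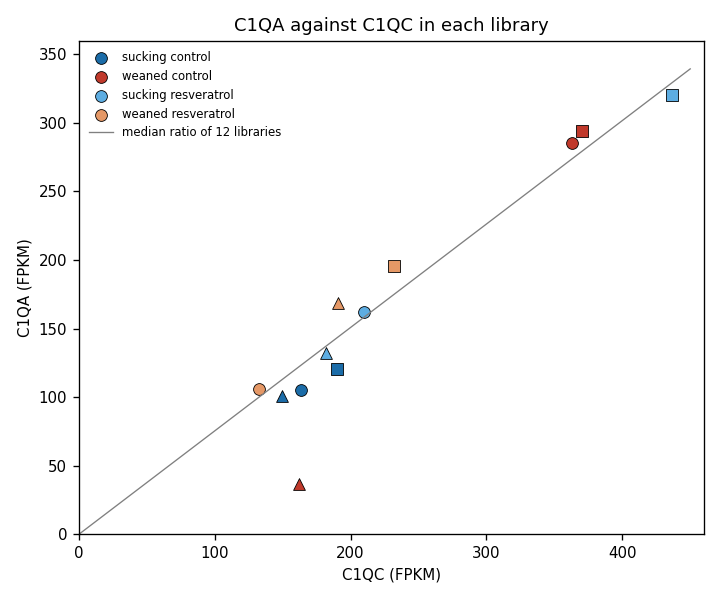
C1QA against C1QC in FPKM, 1 point per library, coloured by group with the shape giving the replicate, and a line at the median ratio of 0.754 over the 12 libraries. Replicate 3 of the weaned control piglets lies far under the line, at a ratio of 0.224, and the other 11 lie at ratios of 0.634 to 0.884.

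CFD and CFP, the genes of the alternative pathway among the 5, separated in control litters. CFD had 102, 79.1 and 48.2 FPKM in sucking and 192 to 229 FPKM in the 3 weaned control piglets. These groups did not overlap, with means of 76.5 ± 27.1 FPKM and 207 ± 19.7 FPKM (SD, n = 3) and a log2 fold change of 1.49 (SE 0.28). In resveratrol litters, sucking piglets had 141, 208 and 151 FPKM of CFD and weaned piglets 234, 138 and 219 FPKM. Here the groups overlapped, and all 6 libraries were above every sucking control library. CFP had 4.04, 4.82 and 3.96 FPKM in sucking and 10.4, 13.0 and 13.2 FPKM in weaned control piglets. The groups did not overlap, and the log2 fold change was 1.32 (SE 0.17) on the log2(FPKM + 1) scale, which understates changes of genes with low FPKM. In resveratrol litters CFP had 10.5, 21.1 and 5.70 FPKM before and 8.16, 11.4 and 13.5 FPKM after weaning. The sucking resveratrol libraries spanned the whole range of the weaned ones, and their SD of 7.86 FPKM compares with 0.474 FPKM in sucking controls. Proximal small intestine markers (5 of 5 matched) summed to 21.7 to 158 FPKM in sucking and 14.2 to 21.1 FPKM in weaned control piglets, and distal ones (4 of 5 matched) to 65.6 to 8253 FPKM and 6748 to 9949 FPKM. B lymphocyte markers (3 of 4 matched) summed to 145 to 151 FPKM in sucking and 162 to 245 FPKM in weaned control piglets, without overlap. CD79A made up most of these sums, at 144 to 150 FPKM and 160 to 201 FPKM, while MS4A1 overlapped. The part of the sampled position and of these cells in CFD and CFP was not tested. The study reports the distal markers FABP6, SLC10A2 (under its Ensembl identifier), SLC51A and PYY as raised by weaning in these control libraries. It reports the proximal markers TRPV6 and SLC40A1 (under its Ensembl identifier) as lowered. In this comparison position and weaning therefore cannot be told apart by these lists.

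CFI, the regulator, followed another pattern. It had 211, 122 and 76.3 FPKM in sucking control piglets and 155, 108 and 211 FPKM in weaned control piglets. These overlapped fully, and the log2 fold change was 0.28 (SE 0.40), which became -0.07 without replicate 3 of the sucking control piglets. In sucking resveratrol piglets CFI had 177, 168 and 133 FPKM, and in weaned resveratrol piglets 93.7, 94.9 and 78.5 FPKM. Every weaned library lay under every sucking one in resveratrol litters, with means of 89.0 ± 9.17 FPKM and 160 ± 23.5 FPKM (SD, n = 3). The marker sums of epithelium (1662 to 2990 FPKM in sucking, 3497 to 5124 FPKM in weaned), smooth muscle (471 to 2330 FPKM and 107 to 459 FPKM), fibroblasts (488 to 1450 FPKM and 216 to 435 FPKM), endothelium (34.9 to 55.2 FPKM and 18.1 to 27.0 FPKM) and granulocytes (1.06 to 1.60 FPKM and 0 to 0.107 FPKM) did not overlap between these groups either. The sums of the other marker lists overlapped. Within the epithelial list, FABP2 had a lower mean in weaned (190 FPKM) than in sucking piglets (283 FPKM), and EPCAM overlapped. The part of these markers in the CFI difference was not tested.

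The order of the group means was the same for C1QA and C1QC, from sucking control through weaned resveratrol and sucking resveratrol to weaned control piglets, but neighbours in this order overlapped at every step. For CFP and CFD the sucking control piglets did not overlap with the next group, and the remaining 3 groups overlapped with their neighbours. For CFI weaned resveratrol piglets had the lowest mean, and neighbours overlapped at every step. Replicate 3 of the sucking control piglets had the lowest value of its group for 5 of 5 genes, and replicate 2 of the sucking resveratrol piglets the highest of its group for 4 of 5.

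Weaning in resveratrol litters was tested in libraries other than those of the control comparison, although earlier results of all 12 libraries were known when the genes were chosen. A gene met the study's standard when the unadjusted P of limma was under 0.05 and the log2 fold change was above 1 or below -1. None of the 5 genes met it in resveratrol litters (0 of 5, limma; 4.75% of 13013 genes tested). A linear model with a library-size covariate, fitted in limma without eBayes, also gave 0, but moved CFP to 1.18, CFD to 1.03, C1QA to 0.34 and C1QC to 0.25. Ballgown itself was not run. The unadjusted P was under 0.05 for 1 of them, CFI, with a log2 fold change of -0.83 (SE 0.22, adjusted p = 0.311 from limma). Its adjusted p ranged from 0.194 to 0.9995 over the alternatives, and the groups did not overlap for 1 of 5 genes, with 21.8% of all genes not overlapping. The log2 fold changes were 0.23 for CFD (95% interval -0.46 to 0.91), -0.01 for CFP (-1.01 to 0.98), -0.32 for C1QA (-1.24 to 0.60) and -0.50 for C1QC (-1.41 to 0.41). The intervals of CFP, C1QA and C1QC reach beyond -1, so that they do not show that weaning left these genes unaltered. Without replicate 2 of the sucking resveratrol piglets C1QA was 0.052 and C1QC -0.11. CFD ranged from 0.083 to 0.46 with a library left out. The direction of CFP depended on the scaling, at 0.20 after median-of-ratios rescaling, and on replicate 2 of the sucking or replicate 1 of the weaned resveratrol piglets, without which it was 0.43 and 0.17. The median of all genes in this comparison was -0.16 as deposited and 0.01 after that rescaling.

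In control litters 2 of the 5 genes, CFD and CFP, met the standard, beside 3.31% of 12611 genes tested. Groups did not overlap for the same 2 genes and for 25.3% of all genes. Nothing is read from these counts, since the names were chosen from these libraries. Without replicate 3 of the weaned control piglets, C1QA and C1QC also met the standard.

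**Figure D3:**
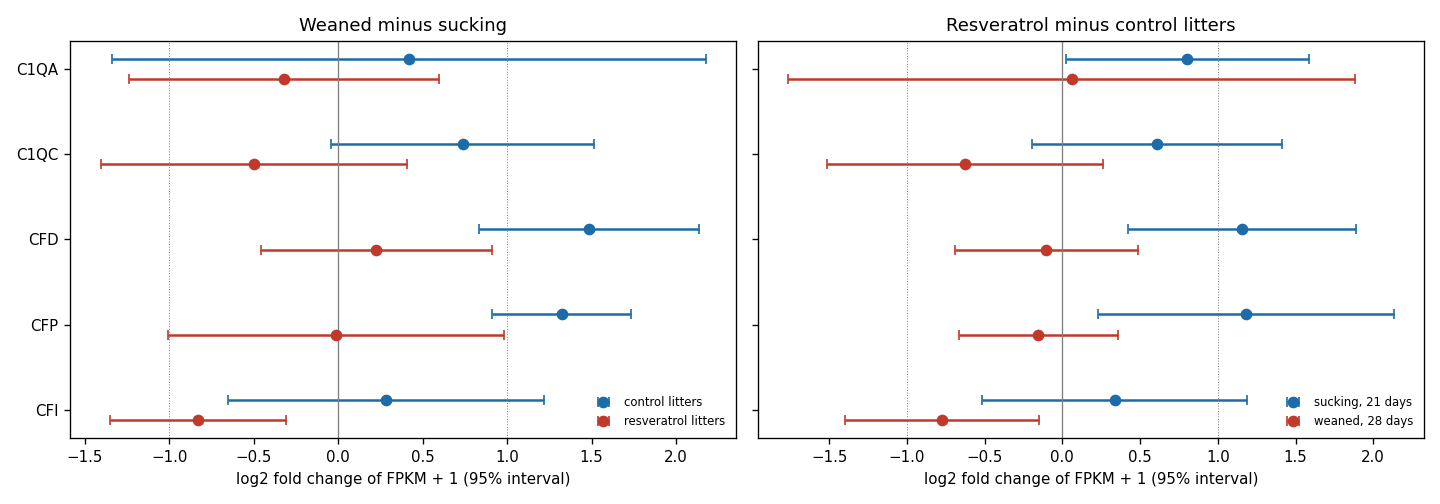
Log2 fold change of FPKM + 1 with its 95% interval for each of the 5 genes, for weaned minus sucking piglets (left, by litter) and for resveratrol minus control litters (right, by age), with dotted lines at the threshold of 1 in either direction. In resveratrol litters CFI, at -0.83, has the only weaning interval that excludes 0.

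The difference of the weaning effect, resveratrol minus control litters, was negative for all 5 genes. It was -1.34 (SE 0.49) for CFP, -1.26 (SE 0.41) for CFD, -1.24 (SE 0.55) for C1QC, -1.11 (SE 0.48) for CFI and -0.74 (SE 0.93) for C1QA. With a library left out, the difference for C1QA ranged from -1.73 to -0.24. By the standard 4 of the 5 were past the threshold, all but C1QA, beside 7.76% of 12886 genes. The control libraries on which the genes were chosen are part of this contrast, so that the count is no independent evidence. None had an adjusted p under 0.05, and the lowest was 0.263 for CFD (limma). The count was 1 without replicate 3 of the sucking control, replicate 2 of the sucking resveratrol or replicate 1 of the weaned resveratrol piglets. It was 2 without replicate 2 of the sucking control, replicate 1 of the weaned control or replicate 3 of the weaned resveratrol piglets, and 2 after median-of-ratios rescaling. With the library-size covariate it was 0.

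Maternal resveratrol was compared with the control diet at each age, and these comparisons share the control libraries too. At 21 days CFP had a log2 fold change of 1.18 (SE 0.41), CFD of 1.16 (SE 0.31), C1QA of 0.80 (SE 0.34), C1QC of 0.61 (SE 0.34) and CFI of 0.34 (SE 0.37). CFP and CFD (2 of 5) met the standard, beside 4.47% of 13186 genes, and the groups did not overlap for 3 of 5, against 21.0% of all genes. The lowest adjusted p was 0.344, for CFD (limma). Neither gene met the standard with the library-size covariate (0.65 and 0.62), nor without replicate 3 of the sucking control or replicate 2 of the sucking resveratrol piglets, and only CFD met it without replicate 1 of the sucking control piglets. With a library left out, CFP ranged from 0.74 to 1.60 and CFD from 0.86 to 1.40. CFP stayed above 1 without replicate 1 or 3 of the sucking control piglets. C1QA also met the standard without replicate 3 of the sucking resveratrol piglets, and CFI was -0.017 without replicate 3 of the sucking control piglets. Leaving out a library gave 0.43 to 1.06 for C1QA and 0.22 to 0.85 for C1QC. In sucking resveratrol piglets smooth muscle markers summed to 471 to 2330 FPKM, against 87.7 to 441 FPKM in sucking controls, and the 5 epithelial markers to 1662 to 2990 FPKM, against 3036 to 3574 FPKM. T lymphocyte markers summed to 26.7 to 49.7 FPKM in sucking resveratrol and 106 to 152 FPKM in sucking control piglets, B lymphocyte markers to 176 to 235 FPKM and 145 to 151 FPKM, and granulocyte markers to 1.06 to 1.60 FPKM and 0.200 to 0.605 FPKM. None of these sums overlapped between the 2 groups, while the sums of the other marker lists did. Within the named lists, ACTG2, CNN1, EPCAM, KRT8, FABP2, CD8A, MS4A1, S100A9 and S100A12 overlapped singly. CD79A made up nearly the whole B lymphocyte sum, and the granulocyte sums were near 0. The part of these markers in the differences was not tested.

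At 28 days none of the 5 genes met the standard (0 of 5, limma; 1.81% of 12380 genes). CFI alone had an unadjusted P under 0.05, with a log2 fold change of -0.77 (SE 0.27, adjusted p = 0.422 from limma), and was the 1 gene without overlap, against 17.3% of all genes. CFI met the standard without replicate 2 of the weaned control piglets, and C1QC without replicate 3. C1QC had a log2 fold change of -0.63 (SE 0.38), CFP of -0.15 (SE 0.22), CFD of -0.10 (SE 0.25) and C1QA of 0.06 (SE 0.78). Between the weaned groups the marker sums of proximal small intestine (14.2 to 21.1 FPKM in control, 50.0 to 98.9 FPKM in resveratrol litters), macrophages (26.5 to 46.3 FPKM and 17.2 to 20.0 FPKM), the adipocyte list (24.7 to 35.5 FPKM and 37.7 to 51.0 FPKM) and granulocytes (0.158 to 0.597 FPKM and 0 to 0.107 FPKM) did not overlap, and their part in these differences was not tested. The sums of the other marker lists overlapped. The sign of C1QA turned without replicate 3 of the weaned control piglets, to -0.93.

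Markers of cells that make complement were read beside these genes. Of 8 macrophage markers, 6 were matched, and their summed level was 23.2 to 36.1 FPKM in sucking control, 26.5 to 46.3 FPKM in weaned control, 19.2 to 37.9 FPKM in sucking resveratrol and 17.2 to 20.0 FPKM in weaned resveratrol piglets. The sums of sucking control and sucking resveratrol piglets overlapped, as did the levels of C1QC, while those of C1QA did not. CD163, a scavenger receptor of tissue macrophages, reached at most 0.693 FPKM in any library, and AIF1, a cytoplasmic protein of macrophages, made up much of the sum at 12.8 to 29.2 FPKM. Of 6 granulocyte markers 3 were matched and summed to at most 1.60 FPKM, and of 5 hepatocyte markers 3 were matched and summed to at most 2.08 FPKM. AHSG, a hepatocyte marker, was at 0 in 11 libraries. Of 5 adipocyte markers 3 were matched; LEP was at 0 in 11 libraries, PLIN1 reached at most 2.60 FPKM, and CIDEC, at 23.0 to 78.9 FPKM, made up nearly the whole sum. The part of fat cells, a main source of factor D, in the CFD values was not tested.

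**Figure D4:**
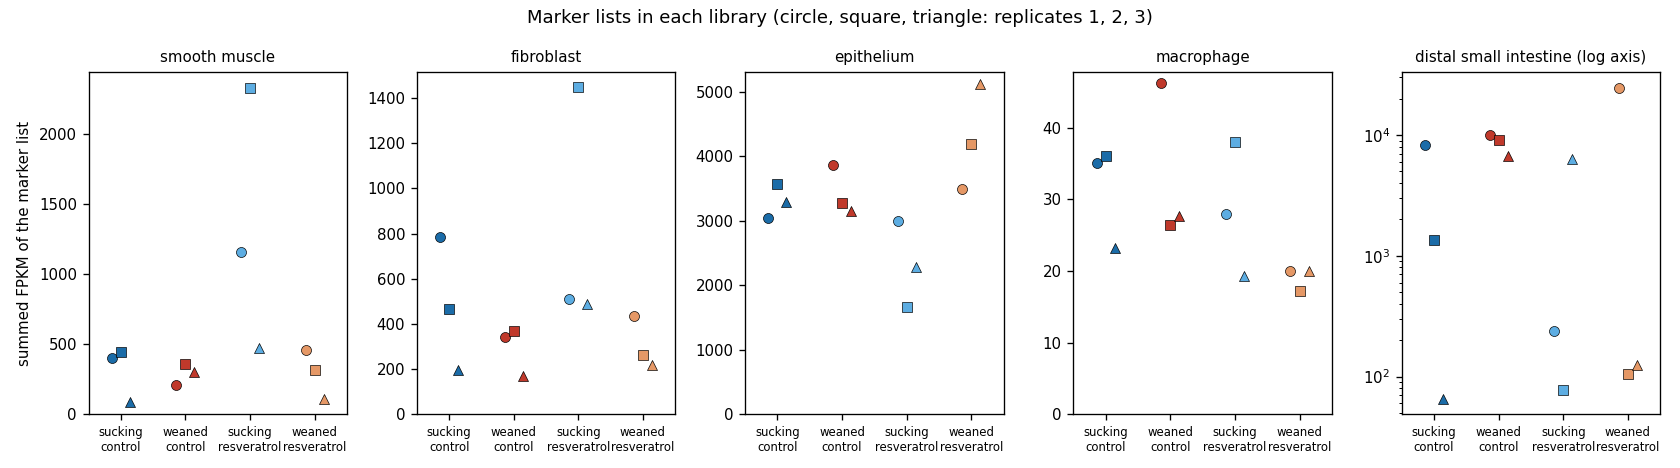
Summed FPKM of the smooth muscle, fibroblast, epithelium, macrophage and distal small intestine marker lists in each library by group, with the last panel on a log axis. Replicate 2 of the sucking resveratrol piglets has the highest smooth muscle sum, 2330 FPKM, and the distal small intestine sum runs from 65.6 to 24538 FPKM.

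The rest of the pathway was described from a list of 40 other complement genes, of which 30 were matched. The list was chosen with earlier results of these data known, so its counts and medians are a description. Transcripts of several components were abundant. C3 is listed under Ensembl identifiers: ENSSSCG00000013551, which the gene name table gives as C3, had 490 to 1396 FPKM, and ENSSSCG00000030385, which the deposited table describes as a complement C3 precursor, had 879 to 2867 FPKM and rank 14 of all gene names. Both are annotated as C3, and reads may have been divided between them. Their log2 fold changes on weaning were -0.08 (SE 0.25) and 0.24 (SE 0.24) in control litters and -0.25 (SE 0.45) and -0.49 (SE 0.43) in resveratrol litters, and every 95% interval held 0. C9, the pore-forming terminal component, had 79.4 to 283 FPKM, and C4A and C2, which form the classical C3-cleaving enzyme, had means of 123.8 and 122.3 FPKM. C8A, which is needed beside C9 for the pore, had a mean of 0.0991 FPKM and was at 0 in 5 libraries. SERPING1, the inhibitor of C1, had a mean of 118.5 FPKM.

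**Figure D5:**
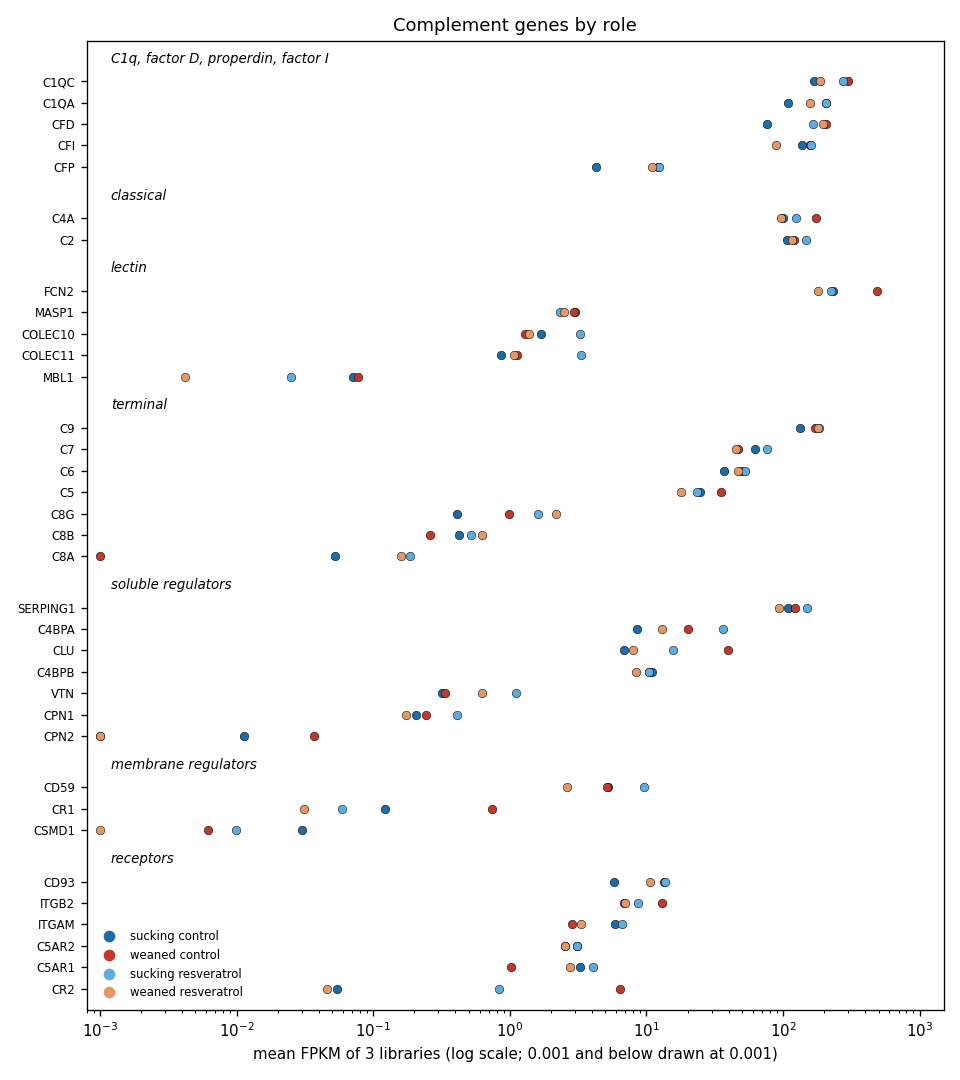
Mean FPKM of 3 libraries per group on a log axis for the 5 genes and the 30 matched genes of the pathway, ordered by role. C1QC, C4A, C2, FCN2, C9 and SERPING1 are among the most abundant, and C8A, MBL1, CPN2 and CSMD1 lie near 0.

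In control litters 5 of the 22 pathway genes tested met the standard, 4 higher and 1 lower in weaned piglets, beside 3.31% of all genes. Nothing is read from this count or from the median below, since earlier results of these libraries were known when the list was chosen. FCN2, a ficolin that starts the lectin pathway and is listed as ENSSSCG00000023333, had 224, 259 and 213 FPKM in sucking and 419, 443 and 586 FPKM in weaned control piglets. These did not overlap, with a log2 fold change of 1.04 (SE 0.19, adjusted p = 0.117 from limma). CD93, a receptor once described as a C1q receptor, had 5.76, 7.16 and 4.40 FPKM in sucking and 15.8, 10.8 and 13.5 FPKM in weaned control piglets, and a log2 fold change of 1.09 (SE 0.22, adjusted p = 0.117 from limma). FCN2 lost its call without replicate 3 of the sucking (0.98) or replicate 3 of the weaned control piglets (0.89), and CD93 without replicate 3 of the sucking (0.94) or replicate 1 of the weaned ones (0.97). C4BPA, an inhibitor of the classical pathway and cofactor of factor I, had 2.52 to 12.0 FPKM in sucking and 20.6, 19.8 and 20.1 FPKM in weaned control piglets, with a log2 fold change of 1.37 (SE 0.48). It was 0.76 without replicate 3 of the sucking control piglets, where the low value lay, and the call was lost. Leaving out replicate 1 or 3 of the weaned ones also lost the call, with the fold change at 1.36 and 1.37. CLU, which blocks the terminal complex, had 10.6, 94.1 and 14.7 FPKM in weaned control piglets and 5.44 to 7.89 FPKM in sucking ones, a log2 fold change of 1.74 (SE 0.72). It was 0.81 without the high library, and the call was lost. The call was also lost without replicate 1, 2 or 3 of the sucking control piglets, where the fold change stayed at 1.85, 1.77 and 1.61. The high library also had 18.7 FPKM of CR2, the B cell receptor for C3 fragments, and the part of lymphoid tissue in its CLU was not tested. C5AR1, the C5a receptor, was the 1 lower gene, with 3.64, 3.94 and 2.17 FPKM in sucking and 0.0246, 0.148 and 2.86 FPKM in weaned control piglets. These overlapped, with a log2 fold change of -1.33 (SE 0.51), and the call was lost with a replicate block and without replicate 1 or 2 of either group. The fold change was -1.26 and -1.21 without replicate 1 or 2 of the sucking, and -0.99 and -1.07 without those of the weaned ones. The median log2 fold change of the 22 was 0.29, against -0.02 over all genes. None of the 22 had an adjusted p under 0.05, and the library-size covariate left 3 (C4BPA, CD93 and FCN2). Without replicate 3 of the sucking control piglets all 4 higher genes lost their call, and the 2 that met the standard, C5AR1 and ITGAM, were lower. The count was 2 without replicate 1 of the weaned control piglets (CLU and FCN2) and 3 without replicate 2 of either group.

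In resveratrol litters 2 of 23 pathway genes met the standard, both lower in weaned piglets, beside 4.75% of all genes, and 0 met it with the library-size covariate. CD59, the membrane inhibitor of the terminal pore, had 5.85 to 12.8 FPKM in sucking and 2.04, 3.18 and 2.64 FPKM in weaned piglets. The groups did not overlap, and the log2 fold change was -1.51 (SE 0.30, adjusted p = 0.311 from limma). C4BPA had 58.5, 33.5 and 17.0 FPKM in sucking and 7.27, 9.68 and 22.2 FPKM in weaned resveratrol piglets, with a log2 fold change of -1.39 (SE 0.52, adjusted p = 0.345 from limma). The sign of C4BPA was thus positive in control and negative in resveratrol litters, and the difference of the weaning effect was -2.76 (SE 0.78, adjusted p = 0.251 from limma). The median of the 23 was -0.37, against -0.16 over all genes. C4BPA lost its call with a replicate block and without replicate 1 or 2 of the sucking or replicate 1 or 2 of the weaned resveratrol piglets, in 4 of the 6 fits that leave out a library. Its fold change was -0.97 and -1.37 without replicate 1 or 2 of the sucking, and -1.08 and -1.26 without those of the weaned ones. CD59 kept its call in all 6 fits that leave out a library. The count was 1 without replicate 2 of either group, 3 without replicate 1 or 3 of the weaned resveratrol piglets, and 4 genes met the standard without replicate 3 of the sucking resveratrol piglets.

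For the difference of the weaning effect 5 of 23 pathway genes met the standard, all negative: C4A, FCN2, C4BPA, CLU and CD93, at -1.21, -1.29, -2.76, -2.57 and -1.35. This compares with 7.76% of all genes, of which 76.7% were negative as deposited and 57.1% after median-of-ratios rescaling, and with the library-size covariate none of the 5 met the standard and 1 other gene, ITGAM, did. The median was -0.67, against -0.15 over all genes, and the count was 3 without replicate 2 and 9 without replicate 3 of the sucking resveratrol piglets. At 21 days 3 of 22 met it, all higher in resveratrol litters, beside 4.47% of all genes: C4BPA at 2.02, CD93 at 1.04 and CLU at 1.02. None met it with the library-size covariate. This count was 1 without replicate 3 of the sucking control or replicate 2 of the sucking resveratrol piglets, 5 without replicate 3 of the sucking resveratrol piglets, and 1 after median-of-ratios rescaling. At 28 days C5AR1 was higher (1.17) and FCN2 lower (-1.46) in resveratrol litters, 2 of 22 genes beside 1.81% of all genes. FCN2 kept its call in all 6 fits that leave out a library, and C5AR1 only in the fit without replicate 3 of the weaned control piglets. With the library-size covariate 4 genes met the standard, C2, C4A, C8G and FCN2. The count was 1 without replicate 1 or 2 of the weaned resveratrol piglets, and 3 without their replicate 3 or without replicate 2 of the weaned control piglets. No pathway gene had an adjusted p under 0.05 in these 3 comparisons. Given how the list was chosen, these counts are no independent evidence.

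The named genes whose levels ran most like each of the 5 were taken from 7709 genes, by the root mean square difference of centred log2(FPKM + 1) over the 12 libraries. For C1QC these were CD4, IL10RA and SOCS7, at 0.23, 0.23 and 0.25, where the spread of C1QC itself was 0.53. C1QA was nearest to C1QC, at 0.49, followed by SYNJ2 and CD4, with a spread of 0.82. CFD was nearest to RNPEPL1 (0.28), TNKS1BP1 (0.31) and AP5Z1 (0.31), and CFP to CHPF (0.29), SUN2 (0.29) and LRRC24 (0.32), while CFD and CFP differed from each other by 0.44. CFI was nearest to HDAC2 (0.22), DNAJC10 (0.24) and EDNRA (0.24), and its difference from each of the other 4 genes was 0.66 to 1.04, above its own spread of 0.50. These are descriptions over libraries that share groups, and no test was made of them.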

How the data were processed

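Poly(A) RNA of 12 piglet jejunum libraries, 3 piglets in each of 4 groups, was sequenced in pairs. The deposited table holds FPKM, computed by the authors with TopHat, StringTie and Ballgown according to the study's methods. The submitters' processing notes name HISAT2 2.0, StringTie 1.3.0 and Bowtie 0.12.2 and the builds Sscrofa10.2 and mm8. No coordinates are given here. Scaling beyond FPKM is not given in the sources used here, and a gene that shares sequence with others can gain or lose fragments in such estimates. Of 41264 rows, 17650 (42.8%) have no gene name and were left out, and 23614 rows with the same gene name were summed to 17049 genes. All 12 value columns were matched to samples by title.

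Genes whose mean over the fitted libraries reached 0.5 FPKM were tested on log2(FPKM + 1) with limma 3.58.1 (lmFit, eBayes with a trend) in R 4.3.3, with 6 libraries per comparison and 12 for the difference of the weaning effect. P-values were adjusted by Benjamini-Hochberg over all genes tested. Replicates are separate piglets, and litters are not identified. The genes and lists, including the pathway and marker lists, were chosen with earlier results of these data known. Text names the 5 genes, pathway genes that met the standard or mark a step of the cascade, and 3 nearest genes for each of the 5. In data simulated for weaning in resveratrol litters, 200 genes were given a log2 fold change of 2. Of these, 186 passed the filter and 177 were recovered. Noise was drawn for each gene independently, and recovery of smaller changes, near the threshold of 1, was not simulated. Alternatives were a pseudocount of 0.1, no filter or a minimum of 5 FPKM, median-of-ratios and quantile scaling, no trend, a replicate block, all 12 libraries, a library-size covariate (summed log2 values to the 75th percentile), the highest locus per gene, and leaving out each library. The covariate was modelled on that of Ballgown, which was not run, and was fitted in limma without eBayes. Sequences were not analysed here. Results for 3 listed genes are not reported here, and these were left out of the pathway and marker lists.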

Additional observations from a re-analysis of the deposited data

Results flagged for a closer look

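The difference of the weaning effect between resveratrol and control litters drew attention for 4 genes, because the test of that difference in limma gave an unadjusted P under 0.05 and a size above 1. The values on the log2 scale were -1.34 for CFP, -1.26 for CFD, -1.24 for C1QC and -1.11 for CFI. None passed after adjustment over 12886 genes, with adjusted p of 0.292, 0.263, 0.349 and 0.340 (limma). The number of the 5 genes past the standard was 0 with the library-size covariate, 2 after median-of-ratios rescaling and 1 to 4 with a library left out. Over the alternatives the adjusted p of CFP ranged from 0.108 to 1.0 and that of CFD from 0.199 to 1.0. The control libraries in this contrast also served to choose the genes.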

How the results depend on the processing

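With each library left out in turn, the number of the 5 genes past the standard was 2 to 4 in control litters, 0 in resveratrol litters, 0 to 3 for resveratrol at 21 days, 0 to 1 at 28 days and 1 to 4 for the difference of the weaning effect. For the other complement genes these numbers were 2 to 4, 1 to 4, 1 to 5, 1 to 3 and 3 to 9. Some log2 fold changes changed sign when a library was left out. For weaning in control litters these ranged from -0.072 to 0.65 (CFI) and from -0.084 to 1.41 (C1QA). For weaning in resveratrol litters they ranged from -0.43 to 0.43 (CFP) and from -0.58 to 0.052 (C1QA). They ranged from -0.017 to 0.71 (CFI) for resveratrol at 21 days, and from -0.30 to 0.030 (CFP), -0.25 to 0.14 (CFD) and -0.93 to 0.56 (C1QA) at 28 days. The libraries behind the changes of sign at 28 days were replicate 1 (CFP) and replicate 2 (CFD and C1QA) and replicate 3 (C1QA) of the weaned resveratrol and replicate 3 (C1QA) of the weaned control piglets. The library-size covariate gave 0 of the 5 genes at 21 days and 0 for the difference, and of the other complement genes 3 in control litters, 0 in resveratrol litters, 0 at 21 days, 4 at 28 days and 1 for the difference. It turned the sign of weaning in resveratrol litters for CFP (1.18), C1QA (0.34) and C1QC (0.25), of CFI at 21 days (-0.24), and at 28 days of CFD (0.34) and C1QA (-0.67). Median-of-ratios rescaling gave 2 of the 5 genes for the difference and 1 other complement gene at 21 days, and 0.20 for CFP on weaning in resveratrol litters. Quantile normalization gave 1 other complement gene at 21 days, 0.062 for CFP on weaning in resveratrol litters and -0.051 for C1QA at 28 days. A pseudocount of 0.1 gave 5 other complement genes at 21 days, no filter 1 at 28 days, and a minimum of 5 FPKM 3 in control litters and 1 at 28 days. Of the counts of genes past the standard, 83 stayed within 1.5 times under the processing alternatives, those that leave out a library not counted, and 15 did not. The causes were not tested.

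Over all genes, the median difference of weaning in resveratrol litters was -0.16 as deposited and 0.01 after median-of-ratios rescaling, and that of the difference of the weaning effect -0.15 and 0.0026. The rescaling moved the split of calls from 129 higher and 489 lower to 231 and 288 in resveratrol litters, from 394 and 196 to 302 and 241 at 21 days, from 106 and 118 to 138 and 90 at 28 days, and from 233 and 767 to 391 and 521 for the difference. A pseudocount of 0.1 moved the counts from 418 to 853 in control litters, 618 to 1163 in resveratrol litters, 590 to 1008 at 21 days and 224 to 488 at 28 days. The library-size covariate gave 230, 175, 340 and 284 in resveratrol litters, at 21 days, at 28 days and for the difference, and a minimum of 5 FPKM 227, 245, 248, 122 and 364 in the 5 comparisons. For weaning in resveratrol litters the 618 calls became 1049, 388 and 928 without replicate 1, 2 or 3 of the sucking piglets.

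Replicate numbers showed no pairing of the samples, with correlations of same-numbered deviations of -0.257 to 0.109. These cannot show that litters were unshared. The study's methods took a male piglet from each litter at both ages, so sucking and weaned control piglets may share litters. The fits treat them as independent. A replicate block gave 1 other complement gene in place of 2 for weaning in resveratrol litters and moved no other count past 1.5 times. The table gives no read count behind an FPKM value, and 3 piglets a group limit what can be detected.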
